A study of Mus musculus with 60 samples.

Results

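Nefl, Fgf13, Rgs4, Kcnab2, Ubox5, Lad1, P4ha3, Pald1, Gtf3c1 and Odf3l1 are 10 genes with more RNA in the DiD- than in the DiD+ breast cancer cells of the mouse bone, and they are described here cell by cell. They were chosen by name for their high levels in DiD- cells of these same libraries, and all 10 were found by symbol among 47729 mouse genes. Because the choice used that contrast, the difference between the groups is a description here and no test was run on it. PyMT-Bo1, a mouse mammary tumor line, was stained with the membrane dye DiD and injected into the heart of wild-type C57BL6 mice. Dividing cells dilute the dye, and cells were sorted by high DiD intensity (DiD+, called dormant) or low intensity (DiD-, called proliferative). The data hold the 32 DiD+ and 28 DiD- cells that the authors kept after quality control of a larger sort. Both groups are cells of the same tumor line with its luciferase, H2B-mApple and Thy1.1 transgenes, and femur and tibia of 5 mice were pooled before the sort. The labels tie no cell to a mouse, so each group is 1 sample and the cells are not replicates. Poisson intervals below cover counting error only. Binomial intervals of shares cover the draw of cells, taken as independent, and no difference between mice. The mice were females 8 to 10 weeks of age.

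Each cell was a library of 1 well, and the depth behind the values was similar in the groups. Counts on mouse genes lay between 2276789 and 7794219 in DiD+ and between 2624405 and 6199108 in DiD- cells, and the median number of genes with a count was 8283 and 8424.5. The tumor keratin Krt8 had at least 572 counts in every cell, and Krt18 was found in 30 of 32 DiD+ and 28 of 28 DiD- cells. Both were lower in DiD+ cells, with log2 ratios of DiD+ over DiD- of -0.89 and -1.11. Of other epithelial markers, Epcam, Krt19, Cldn3 and Cldn4 had no count and Cdh1 had 1. Transgene counts were missing from 1 DiD+ cell (30). At least 7 of 13 macrophage or monocyte markers were found at 10 counts or more in 6 DiD+ wells (19, 21, 24, 30, 37 and 88) and 1 DiD- well (84), where wells are called by the number in their label. Log2 ratios of DiD+ over DiD- lay above 0 for all 13 of these markers (median 3.91) and for all 7 erythroid markers (median 2.42). The summed macrophage markers ran from 0 to 19351 CPM over DiD+ and from 0 to 1703 CPM over DiD- wells. Of the other marker lists, 3 of 9 neutrophil, 1 of 7 lymphoid, 3 of 5 megakaryocyte, 1 of 6 endothelial, 7 of 11 stromal and 2 of 6 glial or nerve markers reached 1 CPM in a group. The numbers in the labels form 2 runs, 17 to 46 and 63 to 92, and both groups are present in each.

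The 10 genes come from unlike pathways. Nefl encodes the light chain of neurofilaments, the intermediate filaments of axons. Fgf13 belongs to the FGF homologous factors, which stay inside the cell and bind sodium channels, and Kcnab2 encodes a beta subunit of voltage-gated potassium channels. Rgs4 speeds the shutdown of G protein alpha subunits. Lad1 encodes ladinin 1, an anchoring filament protein of the epithelial basement membrane, and P4ha3 the alpha subunit of a collagen prolyl hydroxylase. Ubox5 encodes a U-box ubiquitin ligase, Gtf3c1 a subunit of TFIIIC, the factor that brings RNA polymerase III to its genes, Pald1 the protein paladin, and Odf3l1 a relative of sperm outer dense fiber proteins. Mki67 and Top2a, which encode the Ki-67 protein and topoisomerase II alpha, are made mainly in dividing cells and served as the comparison for proliferation.

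The starts of 4 of the genes are shown because they differ in composition although the genes share the contrast. RefSeq promoter windows on GRCm38.p6 were matched for 9 of the 10 genes, in 15 windows, with Nefl the missing entry. The 250 bases before the start are printed 5′ to 3′ on the strand of the gene for windows without an annotated exon that end at the annotated gene start. Capitals mark matches on either strand to 5 motifs. The TATA box was searched as TATAAA. The CCAAT box was searched by its name letters. The GC box was searched as GGGCGG. The cell cycle homology region was searched as TTTGAA and an E2F-like motif as TTTNNCGC. No matches of different motifs overlapped. Rgs4 is on the minus strand at chr1:169747643-169747892, Ubox5 on the minus strand at chr2:130630039-130630288, Lad1 on the plus strand at chr1:135818348-135818597 and P4ha3 on the plus strand at chr7:100285270-100285519.
Rgs4: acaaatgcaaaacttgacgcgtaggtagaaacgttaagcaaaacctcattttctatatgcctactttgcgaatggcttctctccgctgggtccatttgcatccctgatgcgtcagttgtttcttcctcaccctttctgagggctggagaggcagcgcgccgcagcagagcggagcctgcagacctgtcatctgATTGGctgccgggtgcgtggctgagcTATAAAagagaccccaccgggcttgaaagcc
Ubox5: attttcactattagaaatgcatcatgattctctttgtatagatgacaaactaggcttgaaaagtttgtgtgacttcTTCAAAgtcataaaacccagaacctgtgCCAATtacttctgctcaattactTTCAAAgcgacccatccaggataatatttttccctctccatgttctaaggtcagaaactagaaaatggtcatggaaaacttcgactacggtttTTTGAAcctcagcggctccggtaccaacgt
Lad1: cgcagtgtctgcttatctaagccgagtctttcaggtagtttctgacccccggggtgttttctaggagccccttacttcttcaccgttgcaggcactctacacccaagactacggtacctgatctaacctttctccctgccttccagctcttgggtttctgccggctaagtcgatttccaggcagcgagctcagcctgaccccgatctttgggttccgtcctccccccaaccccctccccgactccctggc
P4ha3: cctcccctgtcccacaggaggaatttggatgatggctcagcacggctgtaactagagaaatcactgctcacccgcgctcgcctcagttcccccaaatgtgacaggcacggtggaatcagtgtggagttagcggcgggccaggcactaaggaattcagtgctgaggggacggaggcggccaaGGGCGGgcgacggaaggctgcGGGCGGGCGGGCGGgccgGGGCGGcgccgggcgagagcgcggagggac
Rgs4 was the 1 gene of the 9 with a TATA box letter match, which 12.4% of 32851 windows of this length hold. P4ha3 held 5 GC box matches, some of them overlapping, and 67.2% G and C, Ubox5 held 3 matches to the cell cycle homology region, 1 to the CCAAT box and 38.8% G and C, and Lad1 held none of the motifs. The cell cycle homology region was present for 3 of the 9 genes (16% of all windows), the CCAAT box for 6 (33.8%), the GC box for 5 (32.7%) and the E2F-like motif for 1, Fgf13 (4.28%). A match is a description of letters and not a bound site, and a gene with several windows had more chances of one.

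As a set, all 10 genes had a log2 ratio of DiD+ over DiD- at or below -1 and 9 of 10 at or below -2. This is the choice of genes and not a result, and 4.86% of 12432 genes reaching 1 CPM in either group lay at or below -1 and 0.378% at or below -2. The ratio was taken on the summed counts, scaled to CPM by the total on mouse genes, with a pseudocount of 1 CPM, which understates the change of low genes. The median over the 10 was -2.51 (-3.62 to -1.26), also with Rgs4 at its limit for counting error. That over all genes with at least 1 CPM was 0.04. Lmnb2, which is not a member, lay among them at -2.37, next to Gtf3c1 at -2.35 and Odf3l1 at -2.33, and the next genes after Odf3l1 were Pthlh at -2.21 and Spice1 at -2.12. Kcnab2 was at -1.26, far from the other 9, and ranked 115 from the low end of 8525 genes that reached 10 CPM and were found in 10 or more cells of the higher group. Rgs4 did not pass that 10 CPM minimum and the other 9 did. The share of cells with a count was lower in DiD+ for 10 of 10. Of 4377 genes found in as many DiD- cells as these (7 to 21), 50.9% had a lower share. Detection is part of the contrast used for the choice, so the 10 of 10 is no separate result.

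**Figure D1:**
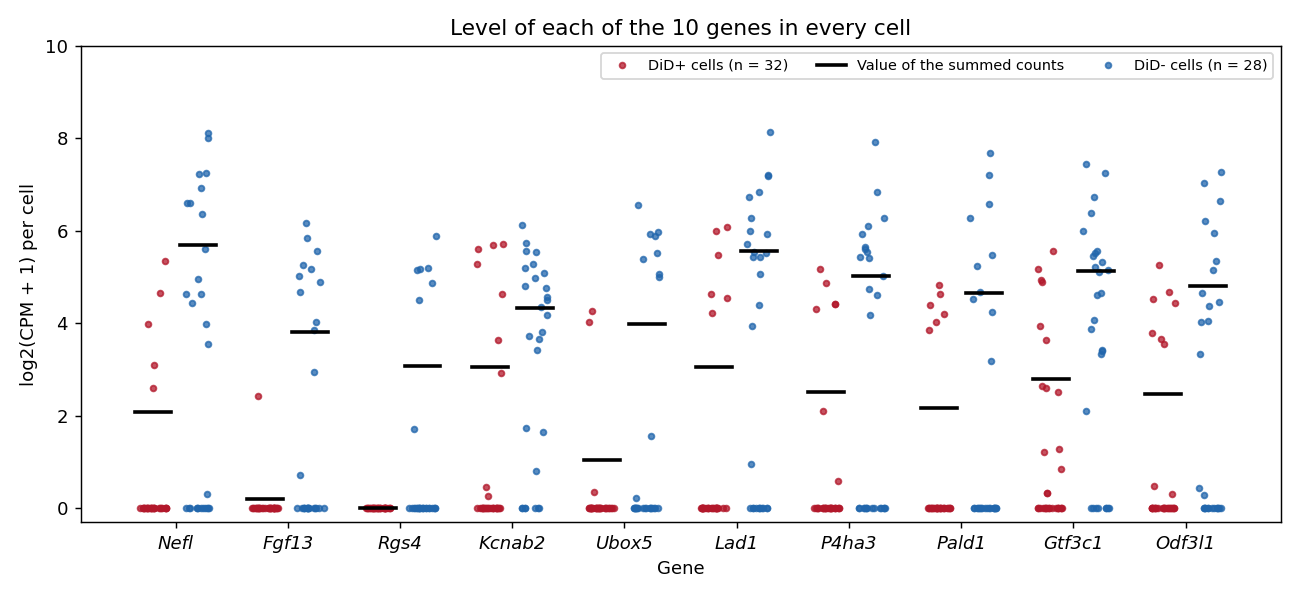
Each point is 1 cell, with log2(CPM + 1) on the y axis and the 10 genes on the x axis, for 32 DiD+ (red) and 28 DiD- (blue) cells, and black bars mark the value of the summed counts. Most DiD+ cells lie at 0 for every gene, Rgs4 has no DiD+ cell above 0, and Kcnab2 is the gene whose carrying cells reach about the same height in both groups.

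Nefl, the neurofilament light chain, had a ratio next to that of Fgf13, and their order changed with the pseudocount and with spike-in scaling. It lies on the plus strand of chromosome 14 (68083863 to 68089095). Of the DiD- cells 16 of 28 carried it (57.1%, exact binomial interval 37.2 to 75.5%), and of the DiD+ cells 5 of 32 (15.6%, 5.28 to 32.8%). The 5 DiD+ cells had 5.06, 7.58, 14.8, 24.1 and 39.8 CPM. The DiD- cells ranged from 0 to 275 CPM (cell 91), with a median of 12.8 over all 28 and 64.6 over the 16 that carried it. Thus 9 DiD- cells lay above the highest DiD+ cell and the groups overlapped below it. The summed counts gave 50.6 CPM (exact Poisson interval 49.4 to 51.9) in DiD- and 3.21 CPM (2.93 to 3.51) in DiD+ cells, which put the ratio at -3.62. Leaving out DiD+ cell 18, which held 41.2% of the DiD+ counts, took it to -4.13. Its exons share 1108 bases (32.8%) with Nefm on the opposite strand, so reads there cannot be assigned by gene without strand, and Nefm had 0 DiD+ and 2 DiD- counts.

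Fgf13, the homologous factor, was nearly absent from DiD+ cells. It is on the minus strand of chromosome X (59062145 to 59568071). In DiD- cells 12 of 28 carried it (42.9%, 24.5 to 62.8%), from 0.647 to 71 CPM (cell 66), with a median of 30.1 over the carrying cells. The 1 DiD+ cell that carried it was cell 24, with 21 counts (4.37 CPM), and 11 of the 12 DiD- cells lay above it. Well 24 held all 13 macrophage or monocyte markers, and without the 7 wells with such markers Fgf13 was found in 0 of 26 DiD+ and 11 of 27 DiD- cells. The part of those wells in the Fgf13 counts was not tested. The summed values were 13 CPM (12.4 to 13.7) in DiD- and 0.144 CPM (0.0890 to 0.22) in DiD+ cells, which put the ratio at -3.61.

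Rgs4, the G protein regulator, had no count in any DiD+ cell. It is on the minus strand of chromosome 1 (169741477 to 169747642). It was found in 7 of 28 DiD- cells (25%, 10.7 to 44.9%), cells 33, 39, 46, 66, 73, 74 and 78. Cell 74 was highest at 58.2 CPM and cell 73 lowest at 2.29 CPM (7 counts), and the other 5 lay between 21.8 and 35.6 CPM. The summed counts gave 7.46 CPM (6.98 to 7.96). For counting error alone, 0 over 146074944 DiD+ counts allows up to 0.0205 CPM (3 counts over the group). The DiD- level was 363-fold that limit. The limit does not cover the draw of cells, since even the lowest carrying DiD- cell held 7 counts. It therefore bounds no fold beyond these cells. The exact binomial interval of 0 of 32 cells reached up to 10.9%, beside 25% of DiD- cells.

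Kcnab2, the potassium channel beta subunit, was carried by more DiD- than DiD+ cells, while the carrying cells of both groups held about the same level. It is on the minus strand of chromosome 4 (152390742 to 152477871). It was found in 21 of 28 DiD- cells (75%, 55.1 to 89.3%) and 9 of 32 DiD+ cells (28.1%, 13.7 to 46.7%). The 9 DiD+ cells had 0.201 to 51.4 CPM with a median of 23.9, and the 21 DiD- cells 0.745 to 68.8 CPM with a median of 22.9. Only 2 DiD- cells lay above the highest DiD+ cell, which again was cell 24. The mean over carrying cells was 0.997 times as high in DiD- as in DiD+ cells, and the share of carrying cells 2.67 times. Summed, it had 19.1 CPM (18.3 to 19.9) in DiD- and 7.38 CPM (6.95 to 7.83) in DiD+ cells. Among DiD+ cells it had 13.5 CPM in the Mki67-positive and 0.826 CPM in the Mki67-negative ones. The split by Top2a went the other way, with 6.51 CPM in Top2a-positive and 8.69 CPM in Top2a-negative DiD+ cells (5 of 19 and 4 of 13 cells).

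Lad1, the anchoring filament gene, was carried by 17 of 28 DiD- cells (60.7%, 40.6 to 78.5%) and 6 of 32 DiD+ cells (18.8%, 7.21 to 36.4%). It is on the plus strand of chromosome 1 (135818598 to 135833342). The DiD+ cells that carried it held 17.7 to 67.2 CPM, again highest in cell 24, and the DiD- cells 0.936 to 282 CPM (cell 78) with a median of 51.6. Summed, it had 46.6 CPM (45.4 to 47.9) in DiD- and 7.37 CPM (6.94 to 7.83) in DiD+ cells, which put the ratio at -2.51. P4ha3, the collagen hydroxylase subunit, lies on the plus strand of chromosome 7 (100285520 to 100319699) and was carried by 14 of 28 DiD- and 7 of 32 DiD+ cells. Its 7 DiD+ cells held 0.503 to 34.9 CPM (cell 82), and 10 of the 14 DiD- cells lay above them, up to 243 CPM in cell 45. Summed, it had 31.3 CPM (30.3 to 32.3) and 4.69 CPM (4.34 to 5.05), also a ratio of -2.51. Within the number runs its ratio was -3.58 (17 to 46) and -1.52 (63 to 92), the widest gap of the 10 between runs.

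Ubox5, the U-box ligase, shares exons with another gene, so its value is uncertain. It is on the minus strand of chromosome 2 (130590002 to 130630038), and 1966 of its exon bases (35.2%) are also exons of Fastkd5 on the same strand, a gene of mitochondrial RNA handling, so the authors' counting had to split shared reads. Ubox5 was found in 10 of 28 DiD- cells (0.161 to 93.1 CPM, highest in cell 92) and in 3 DiD+ cells (0.284, 15.3 and 18.2 CPM). Its summed value was 14.8 CPM (14.1 to 15.5) in DiD- and 1.07 CPM (0.907 to 1.25) in DiD+ cells, which put the ratio at -2.93. Fastkd5 was at 8.06 CPM among DiD- and 12.4 CPM among DiD+ cells, a ratio of 0.57 in the opposite direction, and 4 cells in all carried both. Summed over both genes, a choice made after the overlap was seen, the values were 22.9 CPM and 13.5 CPM and the ratio -0.72.

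Gtf3c1, the TFIIIC subunit, was the member found in the largest number of DiD+ cells. It is on the minus strand of chromosome 7 (125640954 to 125707780) and was carried by 14 of 32 DiD+ (43.8%, 26.4 to 62.3%) and 20 of 28 DiD- cells (71.4%, 51.3 to 86.8%). The carrying DiD+ cells held 0.253 to 46.4 CPM with a median of 5.20, and the carrying DiD- cells 3.27 to 174 CPM (cell 45) with a median of 35.4. Of the 14 DiD+ cells 5 had fewer than 10 counts, and at a minimum of 10 counts 9 DiD+ and 19 DiD- cells carried it. Summed, it had 34.3 CPM (33.3 to 35.4) in DiD- and 5.91 CPM (5.52 to 6.32) in DiD+ cells, a ratio of -2.35. The highest DiD+ well was 37, with all 13 macrophage or monocyte markers, and without the 7 such wells the DiD+ value was 3.83 CPM.

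Pald1, which encodes paladin, lies on the minus strand of chromosome 10 (61319656 to 61383530). It was found in 10 DiD- cells, from 8.16 to 205 CPM, and in 6 DiD+ cells, from 13.6 to 27.5 CPM. Cell 26 alone gave 37.1% of its DiD- counts, and without that cell the log2 ratio went from -2.48 to -1.91. Its summed values were 24.2 CPM (23.3 to 25.1) in DiD- and 3.51 CPM (3.21 to 3.83) in DiD+ cells. Odf3l1, the outer dense fiber relative, lies on the minus strand of chromosome 9 (56848659 to 56864679) and was found in 15 DiD- cells (0.216 to 154 CPM, highest in cell 66) and 9 DiD+ cells (0.248 to 37.4 CPM). Its summed values were 27.2 CPM (26.3 to 28.2) and 4.59 CPM (4.25 to 4.95), a ratio of -2.33.

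How the groups differed varied among the 10. Over the 9 genes with DiD+ counts, the share of carrying cells was 1.63 to 13.7 times as high in DiD- cells, with a median of 2.67. The mean level over carrying cells was 0.997 to 7.01 times as high, with a median of 3.5. The share had the larger fold in 4 of the 9. Combinations with fewer than 10 counts were a larger part of those in DiD+ than in DiD- cells. Of 142 gene and cell combinations with a count in DiD- cells, 10 had fewer than 10 counts, and of 60 in DiD+ cells, 11 had. Per kilobase of annotated exon, the DiD- level was highest for Odf3l1 (20.8 CPM), followed by Nefl (15), Lad1 (13.7) and P4ha3 (9.99). It lay between 2.41 (Rgs4) and 5.34 (Pald1) for the other 6. Thinned to 2200000 counts per cell, the counts of carrying cells fell by at most 2 for any gene in a group, for example from 9 to 7 DiD+ cells for Kcnab2, and 0 cells were left out.

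**Figure D2:**
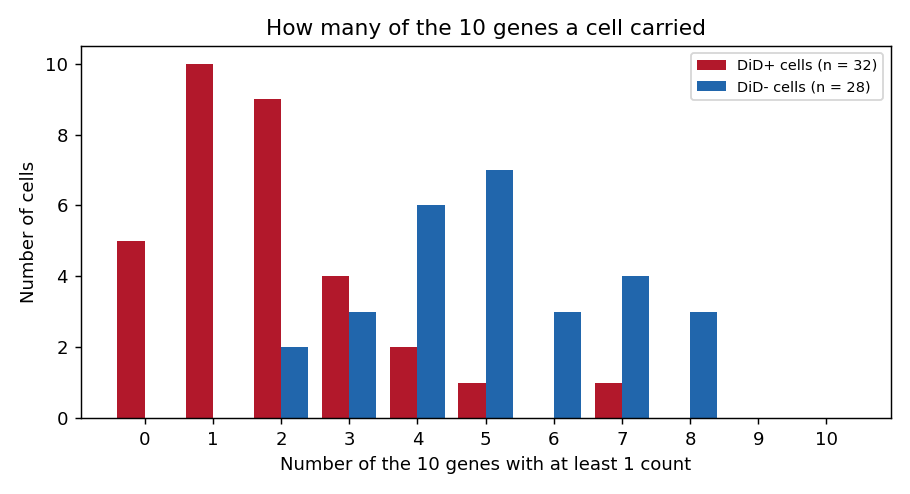
Bars give the number of cells (y axis) that had at least 1 count of 0 to 10 of the genes (x axis), for 32 DiD+ (red) and 28 DiD- (blue) cells. DiD+ cells carried 0 to 7 and DiD- cells 2 to 8, so the distributions overlap from 2 to 7.

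Every DiD- cell carried at least 2 of the 10 genes. The median was 5 in DiD- cells (2 to 8, mean 5.07) and 2 in DiD+ cells (0 to 7, mean 1.88). In contrast, 5 DiD+ cells (19, 29, 68, 81 and 83) carried none of the 10. Their spike-in shares were 6.42, 1.8, 6.53, 0.912 and 2.65% in that order, and the part of this share in the absence was not tested. At least 5 genes were carried by 17 DiD- cells and by 2 DiD+ cells, cell 42 with 5 and cell 87 with 7. Cell 87 held Nefl, Kcnab2, Ubox5, P4ha3, Pald1, Gtf3c1 and Odf3l1 and had the most genes detected of all DiD+ cells (10456). The DiD- cells with 8 genes were 40, 78 and 84, of which 84 is the well with macrophage markers. Without the wells with macrophage markers the means were 4.96 and 1.88, and within the number runs 5.25 and 4.94 for DiD- and 1.83 and 1.93 for DiD+ cells. The summed level of the 10 was 32.4 to 663 CPM (median 216) over DiD- and 0 to 158 CPM (median 28.2) over DiD+ cells. Across cells of a group the number of members found moved with the number of genes detected. Pearson's r was 0.57 (Spearman's rho 0.59) over 28 DiD- and 0.62 (0.55) over 32 DiD+ cells, against -0.08 and 0.11 with total counts. These are descriptions over cells of 1 sample, and a member found is itself a gene detected.

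The 10 genes showed no strong pattern of being found together. In DiD- cells each of the 45 pairs shared at least 1 cell, with a median of 6 and up to 15 for Kcnab2 and Gtf3c1. Added over pairs, 330 shared cells were seen beside 321 from the product of the shares of the 2 genes. Nefl was found with Lad1 in 12 cells (9.71 from the shares) and with Kcnab2 in 14 (12), and Fgf13 with Rgs4 in 5 (3). The fewest shared cells were 1 for Rgs4 and Ubox5 and 2 each for Nefl and Ubox5 and for Rgs4 and Pald1, where the shares gave 2.5, 5.71 and 2.5. In DiD+ cells 30 of 45 pairs shared a cell, with 64 shared cells in total beside 48.2 from the shares. Cell 87 alone gave 21 of the 64 and cell 42 gave 10. The correlations between members across cells, on log2(CPM + 1), had a median of 0.02 (-0.43 to 0.44) within DiD- and 0.11 within DiD+ cells, and 0.18 over all 60 cells, in which the group difference enters. A weak value in sparse counts is no finding.

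Within DiD- cells the 10 genes were split evenly by Mki67. Mki67 itself was at 67 CPM among DiD+ and 96.2 CPM among DiD- cells (ratio -0.52) and was found in 16 of 32 and 19 of 28 cells. Among DiD- cells, 5 of the 10 genes were found in a larger share of the 19 Mki67-positive than of the 9 Mki67-negative cells, and 5 in a smaller share. Of 4377 genes found in as many DiD- cells, 63.9% were found in a larger share of the Mki67-positive cells. Mean members per cell were 5.26 and 4.67, a difference of 0.60, and the difference was -0.11 within cells 17 to 46 and 0.97 within cells 63 to 92. Without DiD- cell 89 it was 0.26. Nefl and Pald1 were found in larger shares of Mki67-positive cells. Nefl was found in 14 of 19 and 2 of 9 cells, with 64.7 and 22.7 CPM, and Pald1 in 9 of 19 and 1 of 9, with 34.5 and 3.82 CPM. Ubox5 (5 of 19 and 5 of 9 cells), Gtf3c1 (13 of 19 and 7 of 9, 25.8 and 51.2 CPM) and Odf3l1 (9 of 19 and 6 of 9, 19.8 and 41.9 CPM) had the larger share in Mki67-negative cells.

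**Figure D3:**
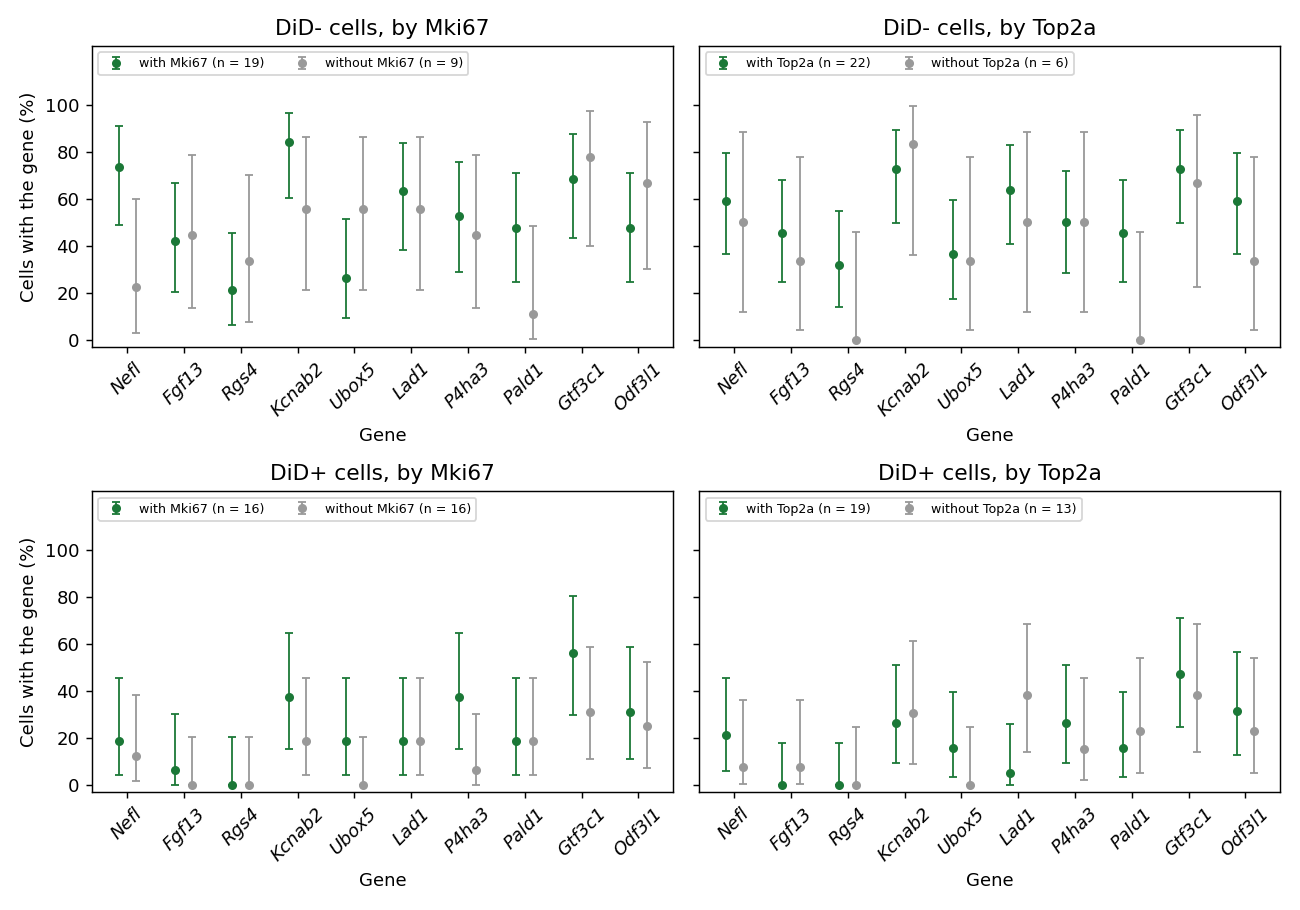
Points give the percent of cells with each of the 10 genes (y axis) in cells with (green) and without (grey) Mki67 or Top2a, for 28 DiD- and 32 DiD+ cells. Bars are exact 95% binomial intervals for the draw of cells, taken as independent. Rgs4 and Pald1 are at 0 in the 6 DiD- cells without Top2a.

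Top2a split the 10 genes about as it split other genes found in as many DiD- cells. It was at 138 CPM among DiD+ and 322 CPM among DiD- cells (ratio -1.22) and was found in 19 of 32 and 22 of 28. In DiD- cells 8 of the 10 genes were found in a larger share of Top2a-positive cells, 1 (Kcnab2) in a smaller and 1 (P4ha3) in an equal share, where 72.5% of 4377 genes were found in a larger share. Mean members were 5.36 in the 22 positive and 4 in the 6 negative cells. All 7 DiD- cells with Rgs4 and all 10 with Pald1 also carried Top2a, and the exact binomial interval of 0 of 6 Top2a-negative cells reached up to 45.9%. For Rgs4 this rests on cell 74, its highest, which held 2 counts of Top2a (0.626 CPM). With Top2a called at 10 CPM, a setting applied to both genes after these cells were seen, 6 of 21 positive and 1 of 7 negative DiD- cells had Rgs4, and 10 of 21 and 0 of 7 had Pald1. Genes detected moved in the same direction, with medians of 8767 and 7487 in Top2a-positive and Top2a-negative DiD- cells, and 8728 and 8108 in the Mki67 split. The part of the number of genes detected in these shares was not tested. Of the 9 genes found in DiD+ cells, 7 were found in a larger share of the 16 Mki67-positive than of the 16 Mki67-negative cells, 0 in a smaller and 2 in an equal share (50.4% of 3957 genes found in as many DiD+ cells as members found there). Means were 2.44 and 1.31, beside median genes detected of 8778.5 and 8210.5, with P4ha3 in 6 and 1 and Ubox5 in 3 and 0 cells. Cells 42 and 87, with 5 and 7 of the genes, were both Mki67-positive. They weigh on these values, since the Mki67-positive cells held 39 gene and cell combinations in all. Among these, Ubox5 had 1 count in cell 63 and P4ha3 had 3 in cell 22. For Top2a in DiD+ cells 5 of the 9 genes had a larger share and 4 a smaller one (54.9% of 3957), with means of 1.89 and 1.85. Lad1 was found in 1 of 19 Top2a-positive and 5 of 13 Top2a-negative DiD+ cells.

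**Figure D4:**
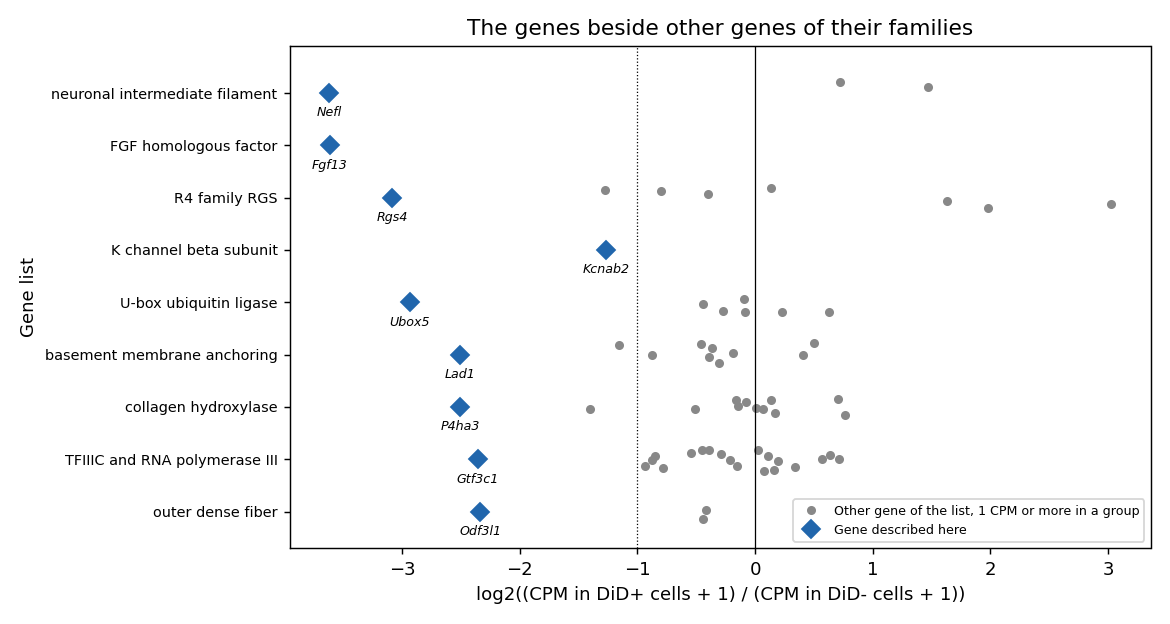
The x axis gives the log2 ratio of DiD+ over DiD- on CPM + 1 and each row of the y axis a gene list, with blue diamonds for the genes described here and grey points for other listed genes that reached 1 CPM. The diamonds, chosen for low ratios in this contrast, lie at -3.62 to -1.26 and most grey points between -1 and 1, with the dotted line at -1.

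No relative with at least 1 CPM had a ratio as low as the member of its list. The members were chosen for low ratios in this contrast and the relatives were not, so this gap follows from the choice. A list's values here are counts of genes, with no test, and of all 12432 genes with at least 1 CPM 46.8% were lower in DiD+ cells (71.5% with spike-in scaling). Of the other neuronal intermediate filament genes, Prph (ratio 1.47, 5.56 and 1.37 CPM in DiD+ and DiD-) and Nes (0.72, but -0.01 with spike-in scaling) were higher in DiD+ cells, and Nefh and Ina had no count. Other FGF homologous factor genes reached 1 CPM in 0 of 3 cases and other potassium channel beta subunits in 0 of 2. In the R4 family of RGS genes, Rgs1 (3.03) and Rgs2 (1.98) were higher in DiD+ cells, Rgs5 was at -1.27, and 3 of 7 with at least 1 CPM were lower. Without the 7 wells with macrophage markers Rgs1 and Rgs18 had no count left, and Rgs2 was at 1.95. Itga6, an integrin that binds laminin, was at -0.87 and Lama3 at -1.15 (with no count outside the same 7 wells), and 7 of 9 other basement membrane anchoring genes were lower in DiD+ cells (median -0.37), also 7 with spike-in scaling. The 6 other U-box genes had a median of -0.09 and none at or below -1. P4ha1 (0.17) and P4ha2 (0.71), the other alpha subunits, were higher in DiD+ cells, but lower with spike-in scaling (-0.43 and -0.07), and 5 of 11 collagen hydroxylase genes were lower (10 with spike-in scaling), P3h2 at -1.40 the most (-2.42 without the wells, where P4ha3 was at -2.45). Of 19 other TFIIIC and polymerase III genes 10 were lower (17 with spike-in scaling) and 0 at or below -1, with a median of -0.15 (Polr3e -0.93, Brf2 0.71). With spike-in scaling Polr3b (-1.47), Polr3d (-1.32) and Polr3e (-1.51) lay below -1. Odf2 (-0.42) and Odf2l (-0.44) were the 2 outer dense fiber genes with at least 1 CPM. Of 16 other neuronal genes 4 reached 1 CPM, with Tubb3 at -1.01, Uchl1 at -0.17, Ncam1 at -0.20 and Map2 at 1.36, and 6 had no count. Scaling by spike-ins moved the median of all genes to -0.33 and put 15 of these 60 other genes that were higher in DiD+ cells on the lower side. Proliferation genes were lower as groups, with 41 of 42 S phase genes lower in DiD+ cells (median -0.68) and 50 of 54 G2/M genes (median -0.47). With spike-in scaling the medians were -0.89 and -0.62, beside -0.33 for all genes. The medians of the 10 described here were -2.51 and, with spike-in scaling, -2.61. They cannot be ranked against these lists, because the 10 were chosen on this contrast. None of the 10 genes belongs to those 2 lists.

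The genes most alike over the 60 cells, by Pearson's r of log2(CPM + 1) among 8698 genes that passed the 10 CPM and 10 cell minimums, were named as a description. The most alike gene was Slc35g1 for Nefl (0.56), Dhx35 for Fgf13 (0.47), Rin1 for Kcnab2 (0.55), Nemp1 for P4ha3 (0.53), Dnajb2 for Pald1 (0.52), Cstf1 for Gtf3c1 (0.47) and Rnd2 for Odf3l1 (0.48). For Lad1 it was Prl2c3 (0.64) followed by Prl2c2 (0.52), near-identical copies between which reads can be split, so their values are uncertain. For Rgs4 it was another of the 10, Fgf13 (0.50), with both found in 5 cells. The group difference enters these values, and within the 28 DiD- cells alone 4 of the 30 genes chosen in this way, 3 per member, came out again.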

How the data were processed

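Single PyMT-Bo1 cells were sorted as DiD+ or DiD-, and those that passed the authors' quality control (32 and 28) were sequenced from full-length cDNA, and each cell is 1 column of values. The authors aligned reads with STAR to GRCm38/mm10 and deposited RSEM's estimated counts, without normalization, for 47825 entries (47729 mouse genes, 92 spike-ins, 4 transgenes). A second deposited table holds BASiCS-normalized signal values and served only as another scaling. All 60 columns were matched by label, and 0 were left unused.

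Estimated counts were rounded, summed over a group and divided by the total on mouse genes (CPM). Log2 ratios took a pseudocount of 1 CPM. A gene was found in a cell at 1 count or more. Intervals are exact (Poisson for sums, Clopper-Pearson for shares, 95%). Without molecular identifiers, those of sums reflect counting error alone, and those of shares reflect the draw of cells taken as independent. Where a summed level had no count, 3 counts over the group were taken as its limit, for counting error alone. A group is 1 sample, so no p-value was computed. No cell was removed as a doublet. Thinning drew 2200000 counts per cell (seed 20220129). Named were the 10 genes, Mki67 and Top2a, genes of their family lists (the lowest and highest of a list and those of a member's family), the genes most alike to each (3 per member), and the genes ranked beside them. The most alike gene of 1 member is not reported here. The members and all gene lists were chosen with earlier results of these data known. Positions are GENCODE's on GRCm38, and promoter windows RefSeq's on GRCm38.p6.

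Counts simulated for 47729 genes were used to test the computation, and 99.5% of 200 changed genes came within 0.2 of the known log2 ratio of DiD+ over DiD- on the pseudocount scale. The changed genes had at least 10 CPM, and Poisson counts were drawn from the same mean in every cell of a group. The simulation thus checks the arithmetic and not the accuracy of ratios for genes absent from many cells. Python 3.11.15 (numpy 2.4.6, pandas 2.3.3, scipy 1.17.1, matplotlib 3.10.9) and R 4.3.3 were used, and edgeR 4.0.16 and DESeq2 1.42.0 gave scaling factors alone. The alternatives were other scalings, pseudocounts of 0.1 and 10 CPM, other minimums, thinning, leaving out each cell, leaving out wells with macrophage markers, and each run of cell numbers alone.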

Additional observations from a re-analysis of the deposited data

How the results depend on the processing

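All 10 genes stayed lower in DiD+ cells under every scaling, pseudocount and selection of cells tried, in each of 121 gene and setting combinations. The genes were chosen on this contrast in the same cells, so the direction was close to fixed beforehand. The settings show only how far the values moved. The number at or below a log2 ratio of -1 was 8 with a pseudocount of 10 CPM and 9 among genes with at least 10 CPM (3.18% of 8814 genes there). It was 10 in the other settings in which it was counted, none of which summed Ubox5 with Fastkd5. The median log2 ratio of -2.51 was -2.64 with the BASiCS values, -2.73 with a pseudocount of 0.1 and -1.35 with one of 10 CPM, -2.70 without the wells with macrophage markers, -2.91 in cells 17 to 46 and -2.93 in cells 63 to 92, and leaving out 1 cell at a time gave -2.75 to -2.46. Scaling by spike-ins moved the median of all genes to -0.33, and that of the 10 was -2.61. The ratio of Ubox5 was -0.72, and so above -1, when summed with Fastkd5. The median number of genes per DiD+ cell was 1 instead of 2 with a minimum of 10 counts, with a minimum of 1 CPM, after thinning and in cells 17 to 46. The difference in genes per cell by Mki67 in DiD- cells was 0.40 with a minimum of 10 counts, -0.11 in cells 17 to 46, 0.97 in cells 63 to 92, and 0.26 to 0.89 when leaving out 1 cell. By Top2a it stayed between 0.95 and 1.76. Of the 30 most alike genes, 4 were shared with the list from DiD- cells alone and 13 with that from Spearman's rho. The cause of these changes was not tested. No paired analysis was possible because the numbers in the labels name cells and pair none between the groups. Levels under 0.0205 CPM (DiD+) or 0.0251 CPM (DiD-) could not be seen at this depth. These limits cover counting error and not the draw of cells.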
